A study of Caenorhabditis elegans with 4 samples.

Results

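Chromosome II carried 223 of the 1888 regions that were listed as occupied by RNA polymerase II (Pol II) in larvae of Caenorhabditis elegans, or 11.8% of them (Wilson 95% interval 10.4% to 13.3%). All regions placed on this chromosome were taken as members, whatever their width or strength. The animals were N2 wild-type hermaphrodites at the second larval stage (L2), grown at 20 °C. The 2 libraries of Pol II ChIP DNA came from immunoprecipitation with the mouse monoclonal 8WG16, which binds the repeated C-terminal tail of the largest Pol II subunit, and the 2 libraries of input DNA, which is chromatin without enrichment, served as background. Chromatin came from whole animals, so each region sums over all tissues of the larva. A shared protocol text also speaks of embryos and of serum against GFP; stage and antibody are given here as in the labels of the single libraries.

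Pol II transcribes the protein-coding genes and many small RNA genes. In a ChIP experiment it is recovered where it binds at promoters and where it travels through transcribed genes, so a called region can be as short as a promoter or as long as a gene or a group of genes. In C. elegans many neighbouring genes are transcribed together as operons. The autosomes have central parts rich in broadly expressed genes and outer arms, which recombine more and hold more young gene families and more repressive chromatin.

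Both replicates entered a single list, in which a region has its boundaries and a q value (the p value adjusted for the number of candidate regions). No value belongs to one library, so neither a spread between replicates nor a test over samples exists, and differences between chromosome II and the other 5 chromosomes are given side by side, untested. The q values still held the tag numbers of each region. All 223 regions of chromosome II gave a single pair of whole numbers, read here as ChIP tags and scaled input tags, and fold is ChIP tags over scaled input tags. The input numbers of each chromosome were mostly rounded-up multiples of a factor, taken here for a scaling step, which was 3.16 on chromosome II and 2.00 to 3.09 on the others. Both readings are inferences, and each 95% interval of a fold covers counting error only. Fold and p of a region both depend on this factor, so comparisons with other chromosomes are mostly given as listed and again with the factor of chromosome II applied to all; a value given once is as listed. At that factor 936 regions (56.5%) elsewhere still met the list's largest p, while all 223 of chromosome II did so by construction. Because this factor is the largest of all, the number of regions and the fold of each region elsewhere could only stay or fall. The direction of shifts in number, density and covered length was therefore fixed in advance, and only their size is informative. Dropping regions also joins the distances beside them, so longer distances and fewer close neighbours elsewhere were largely built in as well. Positions are those of WormBase WS210, with the first base as 1. Regions are described by position only, without gene, exon or intron, because the available gene names belong to a different genome build.

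As listed, chromosome II was intermediate in density. It held 14.7 regions per Mb over the 15.2 Mb between its first and last region, against 19.8 per Mb on the other 5 chromosomes pooled, and its regions covered 492.1 kb, 3.24% of that span, against 3.62% on the others. At the factor of chromosome II the others had 11.1 regions per Mb and 2.64% of the span covered, so both differences turned round. As listed, V (8.94 regions per Mb) and X (9.19) were less dense than chromosome II, and III (20.7), IV (22.7) and I (42.7) denser. At its factor only III (17.4) was denser, and I (14.6) was nearly equal. The density of chromosome II as listed was 0.617 of the mean of the other autosomes. This ratio changed without chromosome I and with the scaling of the input, which could only raise it. Without chromosome I it was 0.841, and at the common factor it was 1.12.

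Most regions of chromosome II were between 0.5 and 5 kb wide. Their median width was 1518 bp, with quartiles of 595.5 and 2934.5 bp and a range of 1 to 10076 bp, against a median of 992 bp and quartiles of 453 and 2540 bp on the other 5 chromosomes. Regions under 500 bp made up 17.9% on chromosome II (40 of 223, Wilson 95% interval 13.5% to 23.5%), against 27.9% elsewhere (465 of 1665, 25.8% to 30.1%). Regions of 5 kb or more made up 11.7% (26 of 223, 8.08% to 16.5%), against 7.81% elsewhere (130 of 1665, 6.61% to 9.20%); over the whole list the share was 8.26%. The intervals treat regions as independent, which they are not. The differences in width changed with the input scaling. At the factor of chromosome II the others had a median width of 1550 bp and quartiles of 579.25 and 3438.25 bp, with 21.2% of regions under 500 bp and 12.1% of 5 kb or more, and as listed without chromosome I their median width was 1371 bp.

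**Figure D1:**
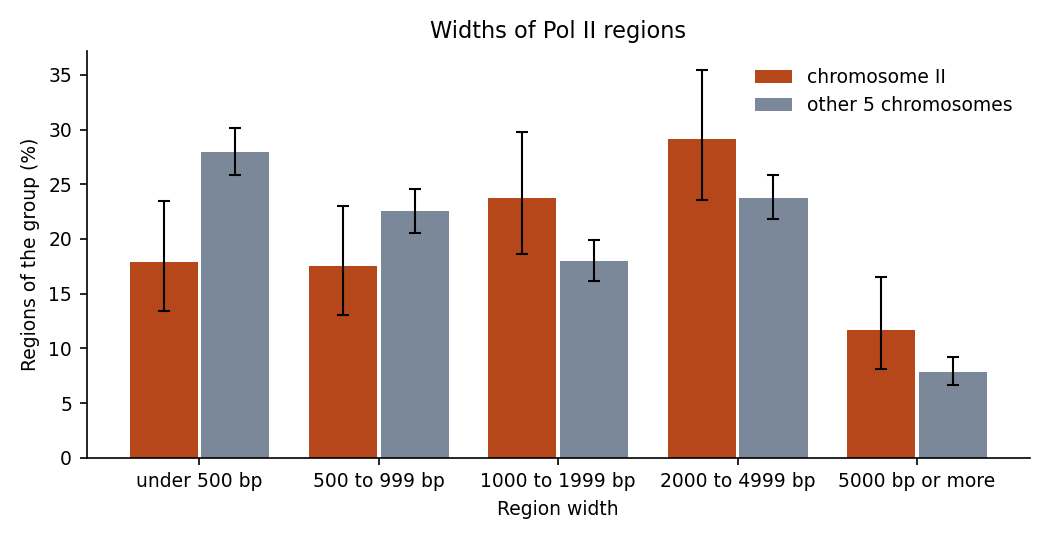
Share of regions (%, vertical axis) in 5 classes of width, on chromosome II (223 regions) and on the other 5 chromosomes (1665 regions); error bars are Wilson 95% intervals, which cover counting error only. As listed, chromosome II had a smaller share under 500 bp (17.9% against 27.9%) and a larger share of 5 kb or more (11.7% against 7.81%; at the factor of chromosome II the others had 12.1%).

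A few broad regions held much of the covered length. The 26 regions of 5 kb or more covered 177.2 kb, or 36.0% of the total on chromosome II, and the 65 regions of 2 to under 5 kb another 41.1%, whereas the 40 regions under 500 bp covered 2.20%. The 2 widest exceeded 10 kb. The region from 8010986 to 8021061 spanned 10076 bp and held 4007 ChIP tags and 2080 scaled input tags, which makes a fold of 1.93 (95% interval 1.77 to 2.10). The region from 1232920 to 1242948 spanned 10029 bp and was 1.37-fold enriched (1.24 to 1.52), as was the next widest, from 9597649 to 9607011 (1.37-fold, 1.26 to 1.51). They were followed by the regions from 12791823 to 12800680 (8858 bp, 2.17-fold, 1.94 to 2.44) and from 5333449 to 5341472 (8024 bp, 1.55-fold, 1.42 to 1.70). Averaged over their length, these 5 were 1.37-fold to 2.17-fold enriched. None of them was among the 10 regions of highest fold or the 10 of lowest q, but lists of 5 and 10 out of 223 regions would rarely overlap. Across all 223 regions, wider ones tended to have lower q (Spearman rho of width with -log10 q 0.657).

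Pol II regions were sparse in the left part of the chromosome. Between base 0 and 5 Mb the bins of 1 Mb held 5, 2, 6, 3 and 8 regions, in that order from the left end. The next 9 bins, from 5 to 14 Mb, held 26, 11, 16, 22, 19, 15, 27, 16 and 25. The bin from 14 to 15 Mb had 11, and the last 0.233 Mb of the span had another 11. The fullest bins by number were those from 11 to 12 Mb (27 regions, 48.7 kb covered), from 5 to 6 Mb (26 regions, 51.2 kb) and from 13 to 14 Mb (25 regions, 37.4 kb). By covered length the bin from 9 to 10 Mb came first, with 63.0 kb in 19 regions, 6 of them of 5 kb or more. Number and length did not rank the bins alike: the bin from 9 to 10 Mb had a median width of 3104 bp and that from 13 to 14 Mb one of 1064 bp.

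**Figure D2:**
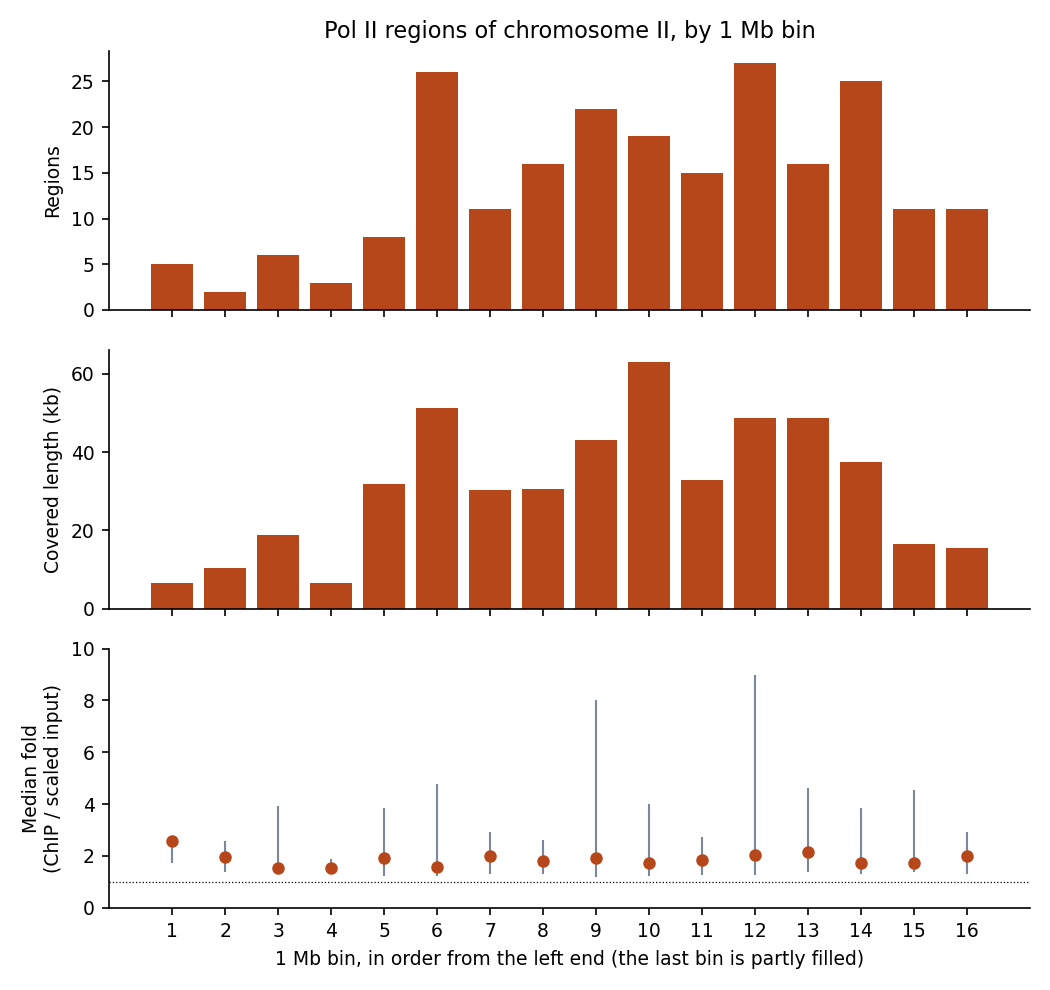
Number of regions (top), covered length in kb (middle) and fold (bottom; points are medians, lines run from the lowest to the highest region) in 1 Mb bins of chromosome II, numbered from the left end; the last bin is 0.233 Mb long. Bins 1 to 5 held 2 to 8 regions each, bins 6 to 14 held 11 to 27, and bin medians of fold lay between 1.53 and 2.56.

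Cut into 3 equal parts, the span had 24 regions on the left (22980 to 5092991), 97 in the middle (5092992 to 10163004) and 102 on the right (10163005 to 15233016). The left part held 10.8% of the regions (Wilson 95% interval 7.34% to 15.5%), the middle 43.5% (37.2% to 50.1%) and the right 45.7% (39.3% to 52.3%), where an even spread gives 33.3%. Only the left part was below an even share, and the intervals of the middle and right parts overlap. These intervals again treat regions as independent, and the shares depend on each other, so they are no test. The right part had 4.25 times as many regions as the left on chromosome II, against 0.488 to 1.24 times on the other 5 chromosomes, whose left parts held 23.2% to 43.1% of their regions. With the input factor of chromosome II on every chromosome, the ratio on the others was 0.469 to 1.40. This difference was not tested.

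The few regions of the left part were wide and about as enriched as the others. Their median width was 2540 bp, against 1735 bp in the middle and 1159.5 bp on the right, and they held 15.1% of the covered length on 10.8% of the regions. Median folds were 1.82 on the left, 1.79 in the middle and 1.92 on the right. Folds of 2 or more were reached by 9 of 24 regions on the left (37.5%), 33 of 97 in the middle (34.0%) and 48 of 102 on the right (47.1%), beside 43.9% over the whole list. Input moved with position too: the regions of the left part held 134 scaled input tags and 257 ChIP tags per kb, those of the middle 198 and 376, and those of the right 167 and 349. The part of this input difference in the number of called regions was not tested.

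Long distances took up much of the left part. Neighbouring regions there lay a median of 101978 bp apart, against 25229 bp in the middle and 22531 bp on the right. Of the 9 distances of 300 kb or more on chromosome II, 6 began before 5 Mb, and together these 6 spanned 3.33 Mb, or 66.5% of the first 5 Mb. The longest ran for 890 kb from 1341857 to 2231935, and the next for 759 kb from 3212784 to 3971408. The first region of the chromosome, from 22980 to 25404, had 1058 ChIP tags against 597 scaled input tags (1.77-fold, 1.52 to 2.08). The region of lowest q in the left part was the one from 4745308 to 4752181, near its inner edge, with 2890 ChIP tags against 947 scaled input tags (3.05-fold, 2.71 to 3.45).

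ChIP tags per region ran from 28 to 4797 with a median of 446, against a median of 228 on the other chromosomes, and scaled input tags had medians of 234 on chromosome II and 125 on the others. The median fold was 1.85 on chromosome II, with quartiles of 1.51 and 2.51, against 1.90 with quartiles of 1.59 and 2.45 on the others. At the factor of chromosome II, the regions still at the p limit elsewhere had medians of 404 ChIP tags, 225 scaled input tags and 1.72-fold (quartiles 1.45 and 2.16), so the order of the median folds turned round, as it did as listed without chromosome I (1.79 elsewhere). Of the 223 regions, 90 (40.4%) reached 2-fold and 12 (5.38%) reached 4-fold, where the whole list had 43.9% and 4.89%; elsewhere 44.4% reached 2-fold as listed and 31.3% at the common factor. The counting interval lay wholly above 2-fold in 41 regions and wholly below it in 62, and it included 2-fold in the other 120. On chromosome II, 54 regions (24.2%) were under 1.5-fold, against 17.1% elsewhere as listed and 29.4% at the common factor. By q, 79 regions of chromosome II (35.4%) were among those at or under the lower quartile of q, which are 25.0% of the whole list by definition, against 23.6% of the regions elsewhere. With the factor of chromosome II on all, the share at or under the lower quartile of p was 30.5% on chromosome II and 23.7% elsewhere.

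**Figure D3:**
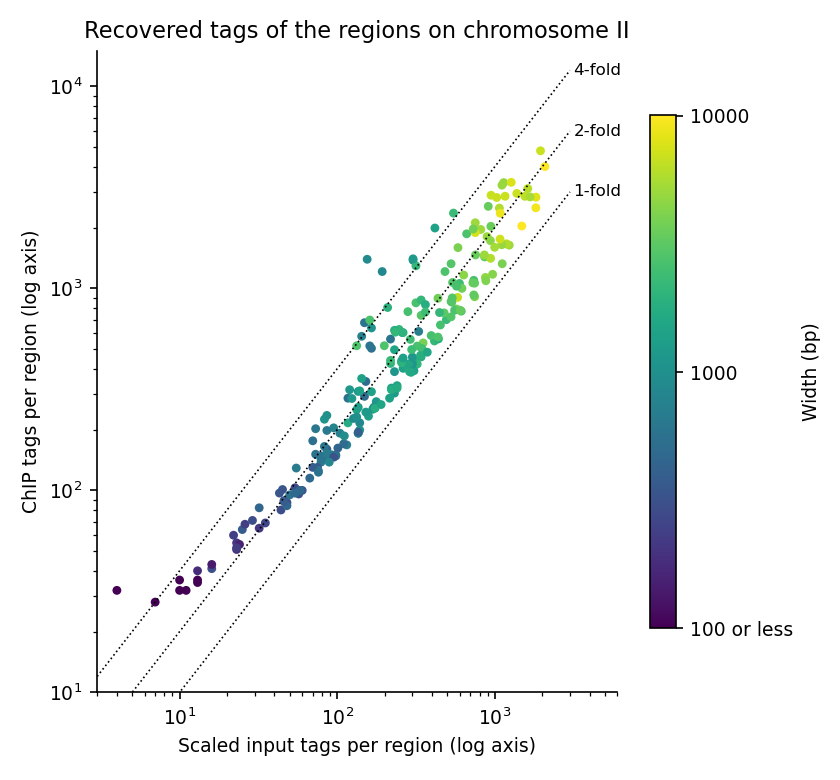
ChIP tags (vertical, log axis) against scaled input tags (horizontal, log axis) for the 223 regions of chromosome II, coloured by width; dotted lines mark 1-fold, 2-fold and 4-fold. The widest regions lie at the top right, mostly between 1-fold and 3-fold, and the 2 points with over 1000 ChIP tags and over 6-fold are the regions of 898 and 869 bp described with the highest folds.

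The 10 regions of lowest q carried 16% of all ChIP tags in the regions of chromosome II. Their folds ran from 2.46 to 8.99. The lowest q (5.36e-269) belonged to the region from 6342665 to 6349687, which was 7023 bp wide and held 4797 ChIP tags against 1951 scaled input tags (2.46-fold, 2.26 to 2.68). In the region from 5659451 to 5664192, 3337 ChIP tags stood against 1140 scaled input tags (2.93-fold, 2.63 to 3.27), and in the one from 6888069 to 6893051, 3243 stood against 1111 (2.92-fold, 2.61 to 3.27). These are nearly equal in width (4742 and 4983 bp), tags and fold. The regions from 7341638 to 7349398 (7761 bp, 2.63-fold, 2.37 to 2.93) and from 10924803 to 10931683 (6881 bp, 2.74-fold, 2.44 to 3.08) had 3348 and 2817 ChIP tags. Of the 10, 6 lay in the middle part, 3 on the right and 1 on the left, beside 43.5%, 45.7% and 10.8% of all listed regions. This difference was not tested. The recovered ranks begin at 43. The 42 ranks before that, which would have still lower p, are absent from the list for a reason not known. Some of them may lie on this chromosome, so every count, share and ranking here covers the listed regions only.

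The regions of highest fold were mostly short and dense. Among the 193 regions with at least 100 ChIP tags, the 10 of highest fold had a median width of 1053.5 bp, against 1518 bp in all 223. Of these 10, 7 were narrower than 1.5 kb, and the widest spanned 2661 bp. In all, 4 of them were also among the 10 of lowest q. The top fold, 8.99 (6.78 to 12.2), was in the region from 11756360 to 11757257, which held 1393 ChIP tags against 155 scaled input tags within 898 bp. Close by, the region from 11761570 to 11762438 followed with 1211 against 193 tags (6.27-fold, 4.86 to 8.28). The region from 5543303 to 5544740 held 1989 against 417 tags (4.77-fold, 4.0 to 5.74), and the one from 12943918 to 12945126 held 1400 against 303 (4.62-fold, 3.76 to 5.74). The intervals of the last 2 overlap, so their order is not resolved by these tag numbers.

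The remaining regions of that group had folds between 4.05 and 4.55 with overlapping intervals. The region from 5844521 to 5845411 had 1379 ChIP tags against 303 scaled input tags (4.55-fold, 3.70 to 5.66), the same scaled input as the region at 12943918. Next came the regions from 14017947 to 14018539 (4.54-fold, 3.39 to 6.26) and from 14865263 to 14867923 (4.33-fold, 3.26 to 5.87), with 676 and 697 ChIP tags. The region from 8819274 to 8821555 had 2358 ChIP tags (4.31-fold, 3.70 to 5.07), and those from 11335765 to 11337917 (4.09-fold, 3.34 to 5.07) and from 11166675 to 11167400 (4.05-fold, 3.01 to 5.65) had 1293 and 579. Of the 10, 7 lay in the right part, 3 in the middle and none on the left, where the highest fold was 3.91. In that order, these parts held 45.7%, 43.5% and 10.8% of all listed regions of the chromosome. With so small a share on the left, few of any 10 regions would lie there. Whether the counts differ from these shares was not tested.

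Density in tags per kb picked out the same short regions. Among the 183 regions of 500 bp or more, the median was 276 ChIP tags per kb, against 243 on the other chromosomes (269 at the common factor). The densest 5 were the regions starting at 11756360 (1551 tags per kb), 5844521 (1548), 11761570 (1394), 5543303 (1383) and 12943918 (1158). All 5 were also among the 10 of highest fold, but density and fold share the ChIP tags and are not independent measures. The 5 widest regions had 203 to 398 tags per kb. The region at 14865263 was an exception among those of high fold: it reached 4.33-fold with 262 ChIP tags and 60.5 scaled input tags per kb.

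Fold fell and rose again across the classes of width. The median fold was 2.23 in the 40 regions under 500 bp, 1.86 in the 39 of 0.5 to under 1 kb, 1.55 in the 53 of 1 to under 2 kb, 1.70 in the 65 of 2 to under 5 kb and 1.93 in the 26 of 5 kb or more. On the other chromosomes the medians as listed were 2.34, 1.85, 1.69, 1.71 and 1.74 in the same order. At the factor of chromosome II they were 2.14, 1.75, 1.61, 1.54 and 1.53, without a rise in the broad classes. The broad regions of chromosome II were 1.32-fold to 3.05-fold enriched, and 12 of 26 reached 2-fold, against 40 of 130 elsewhere as listed and 15 of 113 at the common factor. Across the 223 regions, width and fold correlated weakly (Spearman rho -0.22, Pearson r -0.14), while width and ChIP tags correlated strongly (rho 0.913, r 0.859). Both pairs share the called boundaries. The regions under 500 bp held 28 to 194 ChIP tags, and those of 5 kb or more 902 to 4797. With few tags a region meets the list's largest p only at a high fold. High medians in the shortest class are therefore in part built in by the listing. How large the part of tag number is in the folds of the classes was not tested.

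Neighbouring regions lay a median of 26440 bp apart on chromosome II (bases between them, with quartiles of 5530 and 82271.75 bp), against 16514 bp on the other chromosomes as listed and 44792 bp at the factor of chromosome II. Among the others the median ranged from 6409 bp on chromosome I to 61791 bp on X as listed, and from 30224.5 bp on III to 113095 bp on X at the common factor. The shortest distance was 204 bp, and no distance in the whole list was below 200 bp. Distances under 2 kb made up 17.1% on chromosome II (38 of 222), against 24.6% elsewhere (408 of 1660), and those of 300 kb or more made up 4.05% (9), against 2.47% (41). At the common factor these shares elsewhere were 15.0% and 6.02%, so both differences turned round. Dropping regions joins distances, so the direction of these shifts and of that in the median was largely built in. The median was 0.399 of the mean distance on chromosome II and 0.289 to 0.579 of it on the other 5 (0.505 to 0.619 at the common factor), so the mean was above the median on each chromosome.

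**Figure D4:**
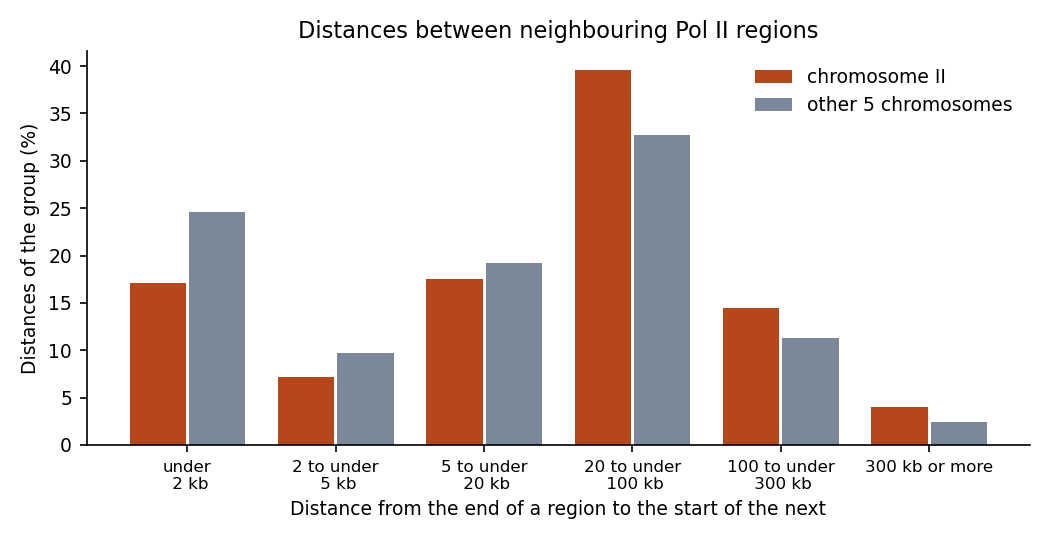
Share of distances between neighbouring regions (%, vertical axis) in 6 classes of length, for the 222 distances on chromosome II and the 1660 on the other 5 chromosomes. Distances of 20 to under 100 kb were the fullest class on chromosome II, and those under 2 kb made up 17.1% there and 24.6% elsewhere as listed (15.0% at the factor of chromosome II).

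Close neighbours formed short runs. With regions joined where at most 5 kb lay between them, 95 of 223 (42.6%, Wilson 95% interval 36.3% to 49.2%) stood in runs, against 54.1% on the other 5 chromosomes pooled (36.8% at the common factor), with 32.1% on X and 67.8% on I as listed (17.0% and 45.5% at the common factor). The lower shares at the common factor were likewise largely built in, because dropping regions breaks up runs. Chromosome II had 41 runs, of which 32 were pairs and 9 held 3 or more regions. Of these 9, 5 lay in the right part, 3 in the middle and 1 on the left, beside 45.7%, 43.5% and 10.8% of all 223 regions. Regions in runs had a median width of 1346 bp and a median fold of 1.85, and the 128 regions that stood alone had medians of 1735 bp and 1.84-fold. Between neighbours within a run, the ratio of the higher to the lower fold had a median of 1.21 over 54 pairs, compared with 1.38 over the 168 neighbour pairs further apart.

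The run with the most members was on the right side. Between 12036372 and 12060288, 6 regions covered 18288 of 23917 bp, with 370 to 2206 bp between them. Its broadest members, from 12036372 to 12043467 and from 12050530 to 12057509, were 7096 and 6980 bp wide. They were 1.62-fold (1.45 to 1.83) and 2.14-fold (1.93 to 2.37) enriched, with intervals that do not overlap. Further right, 3 regions from 12091960 to 12104267 covered 11213 of 12308 bp and were even in strength, at 2.61-fold, 2.73-fold and 2.51-fold.

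Other long runs differed in their layout. From 9272697 to 9286052, 3 regions filled 94.0% of 13356 bp, with distances of 597 and 204 bp and folds of 1.40, 1.58 and 2.15 from left to right. From 2231936 to 2244779, in the otherwise sparse left part, 3 regions had folds of 1.55, 1.85 and 3.91, again highest at the right end. At the right end of the chromosome, 4 regions between 15221433 and 15233016 covered 3235 of 11584 bp with 1.55-fold to 2.35-fold enrichment, and the last of them, from 15232688 to 15233016, closed the list of chromosome II with 2.24-fold enrichment (1.3 to 4.33).

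The run that held the 2 highest folds among regions with at least 100 ChIP tags was picked after its values were seen. It spanned 6079 bp, from 11756360 to 11762438, and had another member between the pair, from 11759110 to 11759712, with 519 ChIP tags against 161 scaled input tags (3.22-fold, 2.42 to 4.39). The 3 regions were 898, 603 and 869 bp wide, and the distances between them were 1852 and 1857 bp, nearly equal. Their densities were 1551, 861 and 1394 ChIP tags per kb. It was one of 3 runs of 3 or more regions in which every member was over 2-fold; the others ran from 12091960 to 12104267 and from 8811051 to 8821555.

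**Figure D5:**
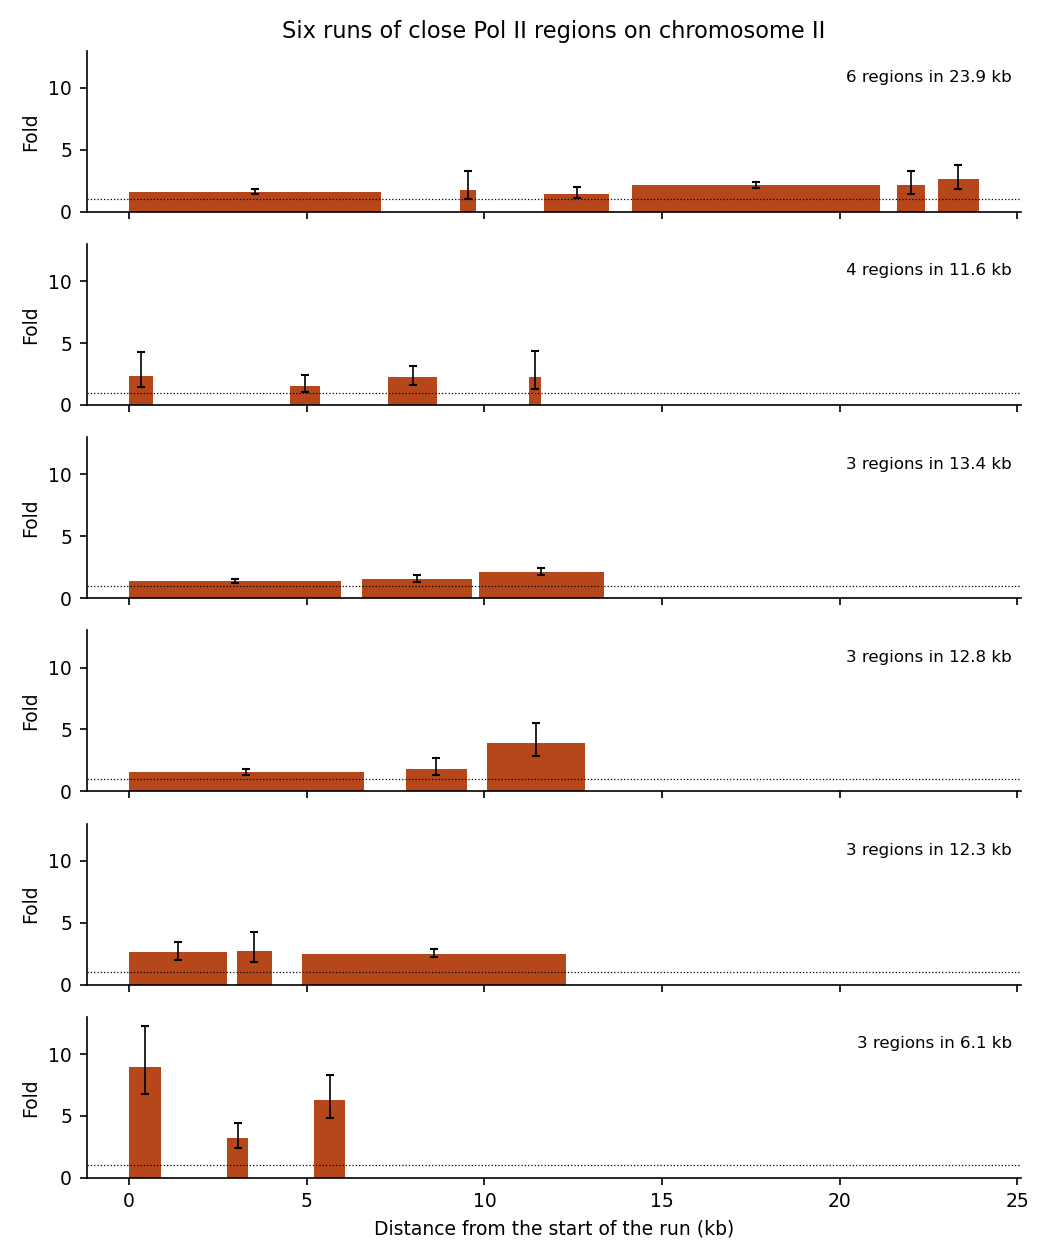
Runs of close regions on chromosome II, each panel starting at the first base of its run (horizontal axis, kb); bar width is region width, bar height is fold (ChIP over scaled input), and error bars are 95% counting intervals. From top to bottom the runs start at 12036372, 15221433, 9272697, 2231936, 12091960 and 11756360, and the last shows 3 narrow regions of 8.99-fold, 3.22-fold and 6.27-fold at nearly equal distances.

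The regions of highest q held few tags and were not those of lowest fold. The lowest fold on chromosome II was 1.19 (1.06 to 1.34), in a region with 1324 ChIP tags and a q of 0.000149. The 3 regions of highest q, from 7196191 to 7197208, from 5714596 to 5715160 and from 12045674 to 12046132, had q values of 0.00923, 0.00923 and 0.00872. The first 2 had identical tag numbers, 192 against 136 (1.41-fold, 1.01 to 2.02), and the last had 84 against 48 (1.75-fold, 1.02 to 3.31). All 7 regions under 100 bp held only 28 to 36 ChIP tags. A single called base, 8476044, had 32 ChIP tags against 4 scaled input tags, and its 8.00-fold has an interval of 1.69 to 413. The interval reached below 1-fold in 1 of the 223 regions, also under 100 bp wide. With so few tags, the size of the enrichment of the shortest regions is not resolved.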

How the data were processed

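The data comprised 2 libraries of Pol II ChIP DNA and 2 of input DNA, numbered by the replicate in their titles, and a single deposited list of 1888 regions. Per the file headers and source field, the caller was PeakSeq and the build WormBase WS210. The deposited q values (p-values adjusted by the authors' caller) stand in the score column. Aligner, read numbers, thresholds and the pooling of replicates: not given in the sources used here. The depth of single libraries is therefore unknown.

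Each q was turned into a p with an offset of 42 ranks (found at all 128 places that allow it) and 15045 tests (968 regions matched, 4 at the next best number). Whole-number tag pairs whose binomial tail with probability 0.5 equalled p to a relative tolerance of 1e-09 were searched up to 30000 tags, and 1880 regions gave one. Where several matched, the pair within 1e-12 was taken. The input of each chromosome was scanned for a common factor from 1.3 to 5; on chromosome II, 91.0% of the input counts were rounded-up multiples of 3.16, where 31.7% of whole numbers are. Intervals of folds are exact (Clopper-Pearson), with input counted before scaling. Tested on simulated data with a factor of 3.2, the recovery returned 393 of 393 tag pairs and the factor; this shows the arithmetic and not that the caller worked this way.

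Regions named are the 10 of lowest q, the 10 most enriched among those with 100 or more ChIP tags, the 5 widest, the 5 densest of at least 500 bp, the 5 runs with most regions, the first and last, and the 3 of highest q. The members, lists and alternatives were chosen with earlier results of these data known. Python 3.11.15, NumPy 2.4.6, SciPy 1.17.1, pandas 2.3.3, numba 0.67.0 and matplotlib 3.10.9 were used.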

Additional observations from a re-analysis of the deposited data

How the results depend on the processing

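Of 56 alternatives to the principal values, 29 stayed within 1.5 times (counts) or within the 95% binomial interval (shares, medians and the density ratio), 23 moved out of it, and 4 reversed the order of chromosome II and the others. The shares of the middle and right parts of chromosome II stayed within their intervals under stricter q, merging, a width minimum and length from base 1; only the right share of covered base pairs moved, to 39.2%. Among regions at or under the median q of the list, chromosome II had 127 regions (13.5% of that list), a median width of 2579 bp, a median distance of 52069.5 bp, 22.0% of regions in runs and a median fold of 2.10. At or under the lower quartile of q these were 79 regions, 16.7%, 2926 bp, 99692.5 bp, 15.2% and 2.46. A shorter list has fewer and more distant regions by construction. Merging within 2000 bp gave a median width of 1963 bp, a median distance of 38370 bp and 16.8% in runs, and merging within 500 bp 35.2% in runs. With runs defined by 2000 or 10000 bp, the share was 30.5% or 52.5%. With the input factor of chromosome II used throughout, chromosome II held 19.2% of the regions. This alternative was chosen after seeing the data, and it could only remove regions elsewhere. The density ratio of chromosome II was then 1.12, and the other chromosomes had a median width of 1550 bp and a median fold of 1.72, so that all 3 comparisons reversed. The medians of chromosome II had 95% intervals of 1209 to 1838 bp and 1.74-fold to 1.93-fold, which treat regions as independent, though they are not. The width of 1550 bp lay within the first, so the order of widths is not resolved there. Without chromosome I the ratio was 0.841, and the medians of the others were 1371 bp and 1.79. Both lay within the intervals of chromosome II, and the order of the folds reversed. In covered base pairs the ratio was 0.803. The cause of these shifts was not tested beyond that. Of 52 folds of named regions after merging within 500 or 2000 bp, 10 changed and 3 left their interval, all within 2000 bp: 3.81 for the region at 5543303, 3.67 for that at 8819274 and 6.14 for that at 11756360. No paired analysis was possible because regions carry no value per replicate, and for the same reason no replicate could be left out.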
